A study of Mus musculus with 33 samples.

Results

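The core circadian clock genes Clock, Arntl, Per2, Per3, Cry1, Cry2, Nr1d1, Nr1d2, Dbp and Tef were followed across the sorted stem and progenitor cells of old mice. These 10 genes were taken by their symbols from 55376 counted symbols, without regard to their levels, and all 10 were counted in all 33 libraries and passed the filter on low values in each comparison. Cohort 2 held 24 libraries, with 4 controls (O-WT) and 4 given nicotinamide riboside (O-NR) in each of hematopoietic stem cells (HSC), common lymphoid progenitors (CLP) and granulocyte-macrophage progenitors (GMP). Cohort 1 held 9 HSC libraries, namely 2 controls, 4 with the supplement and 3 called O-NR-RC, from mice left without the supplement for 2 months after it. All groups were old male C57BL/6 mice of 24 to 29 months with no engineered allele, and nicotinamide riboside (NR), a precursor of NAD+, was given in the drinking water at 12 mM for 4 to 6 weeks. HSCs were sorted as live lineage-negative cKit+Sca1+CD34-Flk2-CD150+ cells, so this model covers the CD150+ part of the HSC compartment. The cells that the labels' titles and the study call GMP carry the name common myeloid progenitor in 1 label field. The time of day at which marrow was collected is not given in the sources used here, and with 1 collection per library no rhythm could be measured.

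In the mammalian clock, the transcription factors CLOCK and BMAL1 (the product of Arntl) bind E-box elements and drive the Per and Cry genes, whose proteins return to block them. The nuclear receptors REV-ERBα and REV-ERBβ (Nr1d1 and Nr1d2) repress Arntl, and the PAR bZIP factors DBP and TEF carry the rhythm to output genes through D-box elements. The clock is linked to NAD+ because CLOCK:BMAL1 drives Nampt, the rate-limiting enzyme of NAD+ salvage, and the NAD+-dependent deacetylase SIRT1 acts on clock proteins. In bone marrow, clock outputs are known for daily rhythms in the release of stem cells and leukocytes into blood.

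Promoters of 9 of the 10 genes were found in the RefSeq table used here (GRCm38.p6, 250 bases before to 50 bases after the annotated start), as 13 start sites. The E-box CACGTG lay in the windows of Cry1, 60 bases before the start, and Tef, 127 bases before the first and 138 bases before the second start. The D-box TTANGTAA occurred at 2 places in Per3, 205 and 158 bases before the start, and the core of the REV-ERB element, TAGGTCA, lay 30 bases after the second start of Arntl. No window held the other core searched, TGGGTCA. Both strands were searched. Of 32851 promoters of this length, 7.15% held the E-box, 2.32% the D-box, 2.61% TAGGTCA and 3.98% TGGGTCA. The 250 bases before the start of Per3 (chr4:151044666-151044915, minus strand), Tef (chr15:81802423-81802672, plus strand) and Cry1 (chr10:85185055-85185304, minus strand) are shown because these 3 genes carry the patterns described below, Per3 and Cry1 between cell types and Per3 and Tef between libraries. Capitals mark the motifs.
Per3: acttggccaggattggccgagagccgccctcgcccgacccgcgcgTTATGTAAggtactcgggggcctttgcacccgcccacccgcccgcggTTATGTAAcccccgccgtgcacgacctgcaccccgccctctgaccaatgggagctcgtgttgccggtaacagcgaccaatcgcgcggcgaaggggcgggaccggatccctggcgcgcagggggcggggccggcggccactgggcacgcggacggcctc
Tef: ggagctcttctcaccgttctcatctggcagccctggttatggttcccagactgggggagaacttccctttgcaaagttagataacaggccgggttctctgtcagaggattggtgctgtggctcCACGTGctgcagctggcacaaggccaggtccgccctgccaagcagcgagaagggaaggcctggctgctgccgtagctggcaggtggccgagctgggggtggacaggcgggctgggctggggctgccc
Cry1: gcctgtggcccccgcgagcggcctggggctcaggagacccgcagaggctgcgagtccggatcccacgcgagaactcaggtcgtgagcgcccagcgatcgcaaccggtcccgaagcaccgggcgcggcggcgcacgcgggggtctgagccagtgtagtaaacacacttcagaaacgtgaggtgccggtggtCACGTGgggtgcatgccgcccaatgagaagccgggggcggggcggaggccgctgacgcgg
A match of these letters is a description of the window and not a measured binding site.

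Libraries held 4792380 to 23816042 counted reads (median 11998451). Levels are given as CPM, the count of a gene scaled to the same total of counted reads in each library, and the lowest member count in a library was 32 reads, for Nr1d1 in a GMP library. Reads in 1462 olfactory and vomeronasal receptor genes, which blood cells are not known to use, summed to 4006 to 13820 CPM in cohort 1, 1391 to 4293 in HSCs of cohort 2, 1938 to 7664 in CLPs and 795.4 to 2193 in GMPs. The TMM scaling factors moved with these reads, at 1.13 to 2.31 in cohort 1, 0.689 to 1.17 in HSCs of cohort 2, 0.867 to 1.55 in CLPs and 0.435 to 0.779 in GMPs. Factors computed from 3070 genes above 30 CPM in all 33 libraries were 0.771 to 1.05, 0.972 to 1.06, 0.933 to 1.07 and 1.06 to 1.12. Fold changes of the members between cell types are therefore given with the value under the scaling on expressed genes beside the main one, and levels without either scaling. In cohort 1, O-NR replicates 1 and 2 stood apart from replicates 3 and 4 (chi-square per degree of freedom of 53 to 71.7 between these pairs against 1.96 and 3.84 within them), and O-NR-RC replicate 1 stood apart from the other O-NR-RC libraries (73.1 and 101 against 4.02). The sorts matched their labels. Summed HSC markers were 696.5 to 839.5 CPM in HSCs of cohort 2, 34.15 to 89.93 in CLPs and 11.91 to 27.65 in GMPs. Summed CLP markers were 2173 to 3779 CPM in CLPs and at most 85.19 elsewhere, and summed GMP markers were 17080 to 19680 CPM in GMPs and at most 559 elsewhere. Nothing in the labels says that each library came from a separate mouse, so p-values measure the spread between these libraries.

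Levels of different genes are compared as CPM per kilobase of exon (CPM per kb). In cohort 2 the means over 8 HSC libraries ran from Nr1d2 at 7.54 CPM per kb, Per3 at 6.87 and Per2 at 5.74, through Cry2 at 4.97, Cry1 at 4.79, Tef at 4.04, Dbp at 3.80 and Clock at 3.77, to Arntl at 3.41 and Nr1d1 at 3.33. Neighbours in this order differed by less than the larger of their SDs between libraries (0.380 to 1.46 CPM per kb over the members). In GMPs, Cry1 led at 10.95 CPM per kb (SD 0.966), Per3 followed at 6.59 (SD 1.26) and Nr1d1 was lowest at 1.23 (SD 0.342). In CLPs, Cry1 was again first at 6.56 CPM per kb (SD 0.746) and Clock was last at 1.92 (SD 0.259). The receptor genes set a floor of reads per length against which these levels stood at a median of 8.04 to 15.8 times in HSCs of cohort 2, 2.96 to 11 times in CLPs and 4.33 to 44.8 times in GMPs, but only 2.48 to 4.36 times in cohort 1. The plot of CPM by library shows the levels of all 10 genes.

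**Figure D1:**
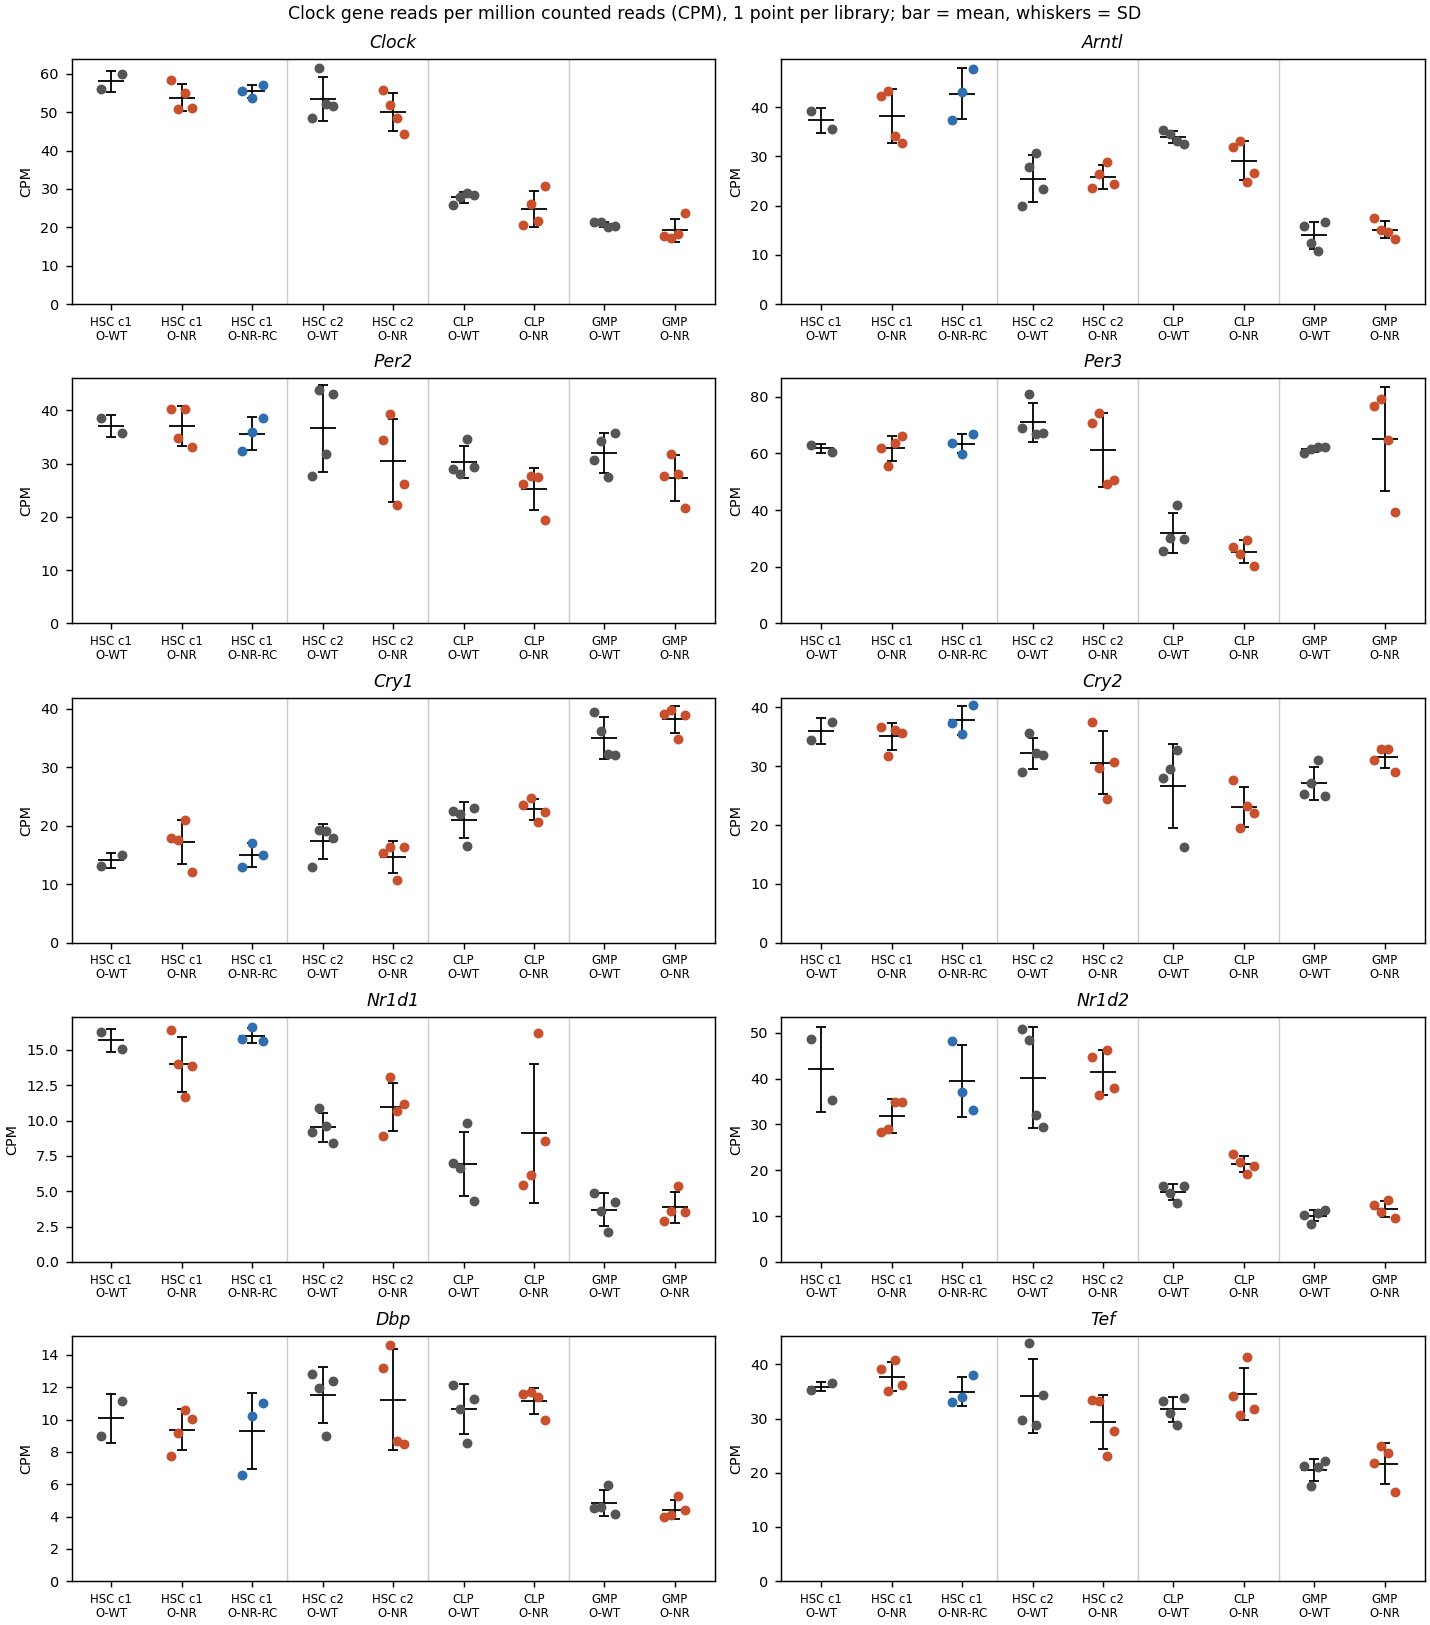
Levels of the 10 clock genes in CPM, 1 panel per gene and 1 point per library, with the libraries grouped by cell type, treatment and cohort. Bars are group means and whiskers the SD. Clock and Nr1d2 sit highest in the HSC groups and Cry1 highest in the GMP groups, and the O-WT and O-NR points of a cell type overlap apart from Per2 and Nr1d2 in CLPs and Nr1d2 in HSCs of cohort 1.

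Clock was lower in both progenitors than in HSCs, and its partner Arntl was lower in GMPs. Clock (chr5:76209868-76304792), the histone acetyltransferase partner in CLOCK:BMAL1, was measured in HSCs of cohort 2 at 48.4, 61.5, 52.1 and 51.7 CPM in O-WT and at 55.8, 51.9, 48.5 and 44.2 in O-NR. It was at 25.8 to 29 CPM in O-WT and 20.5 to 30.7 in O-NR CLPs, and at 20.2 to 21.5 and 17.3 to 23.7 in GMPs. Every HSC library was above every progenitor library. In CLPs Clock stood at a median of 2.96 times the floor of receptor reads, with 1.5 times in the lowest library. In edgeR's quasi-likelihood test Clock was lower in CLPs by a log2 fold change of -1.14 ± 0.17 (SE, adjusted p = 3.73e-07) in O-WT and -1.13 ± 0.17 (adjusted p = 3.72e-07) in O-NR, and in GMPs by -1.04 ± 0.16 (adjusted p = 1.26e-06) and -1.23 ± 0.17 (adjusted p = 4.40e-08). With the scaling on expressed genes these values were -0.94, -1.004, -1.48 and -1.52. The order of Clock in GMPs and CLPs depended on the scaling, since its O-WT fold change was 0.11 (adjusted p = 0.578) in the main scaling and -0.54 (adjusted p = 0.00159) with the scaling on expressed genes.

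Arntl (chr7:113207465-113314126), the BMAL1 gene, was low in GMPs and not in CLPs. GMP libraries held 15.8, 12.46, 10.9 and 16.8 CPM in O-WT and 17.4, 15.1, 14.6 and 13.2 in O-NR. All 8 values were below all 8 HSC values (20.01 to 30.7 CPM) and all 8 CLP values (24.9 to 35.4 CPM). The fold change of GMPs against CLPs was -0.79 ± 0.17 (adjusted p = 0.000267) in O-WT and -0.67 ± 0.17 (adjusted p = 0.00221) in O-NR. Against HSCs it was -0.56 ± 0.17 (adjusted p = 0.00755) and -0.62 ± 0.17 (adjusted p = 0.00339). With the scaling on expressed genes these values were -1.41, -1.08, -0.99 and -0.91. The sign held in all 9 settings, but the call at p below 0.01 against HSCs was lost with RLE size factors, filterByExpr, no filter and DESeq2 (-0.27 to -0.46 in O-WT and -0.41 to -0.57 in O-NR), and against CLPs with the same settings (-0.54 to -0.57 in O-WT, where DESeq2 kept it, and -0.50 to -0.55 in O-NR). Leaving out 1 library could also end the call against HSCs, at -0.34 to -0.51. For the O-WT call these were HSC O-WT replicates 2, 3 and 4, HSC O-NR replicates 1, 2 and 3 and GMP O-WT replicate 3, and for the O-NR call HSC O-WT replicates 3 and 4 and HSC O-NR replicates 1 and 3.

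Of the negative limb, Per3 was low in CLPs, Cry1 was high in GMPs, and Per2 and Cry2 showed no difference that held under both scalings. Per3 (chr4:151003652-151044665), a paralog of the PER repressors, was lower in CLPs than in the other cells. It was at 25.6, 30.02, 41.9 and 29.9 CPM in O-WT CLPs and 27.1, 24.5, 29.6 and 20.3 in O-NR CLPs, against 49.1 to 81.0 in HSCs and 60.1 to 62.3 (O-WT) and 39.4 to 79.3 (O-NR) in GMPs. CLPs and HSCs did not overlap within either treatment. Per3 was lower in CLPs than in HSCs by -1.39 ± 0.18 in O-WT (adjusted p = 3.85e-08) and by the same in O-NR (adjusted p = 3.84e-08), or -1.16 and -1.27 with the scaling on expressed genes. It was higher in GMPs than in CLPs by 1.498 ± 0.18 (adjusted p = 9.97e-09) and 1.65 ± 0.18 (adjusted p = 1.35e-09), or 0.83 and 1.23. GMPs against HSCs gave 0.11 (adjusted p = 0.612) in O-WT and -0.33 (adjusted p = 0.105) with the other scaling, so its direction flips there.

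Cry1 (chr10:85131700-85185064), the stronger repressor of the cryptochrome pair, was the single member called higher in GMPs than in HSCs. GMPs held 39.5, 36.1, 32.3 and 32.1 CPM in O-WT and 39.2, 39.8, 34.8 and 38.9 in O-NR. HSCs held 12.9, 19.3, 19.1 and 17.9 CPM in O-WT and 15.4, 16.4, 10.7 and 16.3 in O-NR. The lowest GMP library was above the highest HSC and the highest CLP library (24.7 CPM). The fold change of GMPs against HSCs was 1.35 ± 0.18 (adjusted p = 5.76e-08) in O-WT and 1.55 ± 0.19 (adjusted p = 3.19e-09) in O-NR, or 0.89 and 1.25 with the scaling on expressed genes. Against CLPs it was 1.23 ± 0.18 (adjusted p = 7.44e-07) and 1.02 ± 0.18 (adjusted p = 2.31e-05), or 0.61 in both treatments. CLPs against HSCs gave 0.12 (adjusted p = 0.678) in O-WT and 0.53 (adjusted p = 0.0266) in O-NR, or 0.29 and 0.64 with the scaling on expressed genes. The O-NR value lost its call with RLE size factors, filterByExpr, no filter or DESeq2 (0.46 to 0.60) and without HSC O-NR replicate 3 or CLP O-NR replicate 1 or 2.

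Per2 (chr1:91415982-91459324), the PER scaffold that carries CRY into the nucleus, and Cry2 (chr2:92403646-92434043) overlapped between cell types. Per2 ranged from 22.2 to 43.9 CPM in HSCs, 19.4 to 34.6 in CLPs and 21.6 to 35.7 in GMPs. Cry2 ranged from 24.4 to 37.4, 16.3 to 32.8 and 25.0 to 32.9. The call of Per2 as higher in O-WT GMPs than CLPs (0.60, adjusted p = 0.00508) turned to -0.05 with the scaling on expressed genes, and that of Cry2 (0.60, adjusted p = 0.00334) to -0.09. In O-NR the call of Cry2 (0.73, adjusted p = 0.000656) was lost at 0.31 (adjusted p = 0.116). Cry2 was called lower in CLPs than in HSCs (-0.52, adjusted p = 0.0153 in O-WT and -0.53, adjusted p = 0.012 in O-NR), with the call lost under the scaling on expressed genes (-0.28, adjusted p = 0.233 and -0.40, adjusted p = 0.0768), in 6 (O-WT) and 5 (O-NR) of the 9 settings (-0.23 to -0.53), and when 1 library was left out, for O-WT any of HSC O-WT replicates 2, 3 and 4, HSC O-NR replicates 1, 2 and 3 and CLP O-WT replicates 3 and 4, and for O-NR any of HSC O-WT replicates 2, 3 and 4 and HSC O-NR replicates 1 and 3 (-0.32 to -0.50).

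Both REV-ERB genes were lower in GMPs than in HSCs, and Nr1d2 was lower in CLPs as well. Nr1d2 (chr14:18204054-18239127, REV-ERBβ) was measured in HSCs of cohort 2 at 50.7, 48.5, 32.1 and 29.4 CPM in O-WT and at 44.8, 36.5, 46.3 and 38.0 in O-NR. CLPs held 16.6, 15.1, 12.9 and 16.5 CPM in O-WT and 23.4, 21.8, 19.2 and 20.97 in O-NR, and GMPs held 10.1, 8.35, 10.6 and 11.3 and 12.3, 10.9, 13.5 and 9.50. No progenitor library reached the lowest HSC library. The fold change of CLPs was -1.57 ± 0.20 (adjusted p = 1.33e-08) in O-WT and -1.09 ± 0.19 (adjusted p = 1.32e-05) in O-NR, and that of GMPs was -1.71 ± 0.20 (adjusted p = 1.10e-09) and -1.70 ± 0.20 (adjusted p = 1.16e-09). With the scaling on expressed genes these were -1.39, -0.95, -2.12 and -1.97. Nr1d1 (chr11:98767932-98775333, REV-ERBα) was the lowest member per kilobase in HSCs of cohort 2 and in GMPs. It was at 8.43 to 13.1 CPM in HSCs of cohort 2, 4.31 to 16.2 in CLPs and 2.12 to 5.40 in GMPs, and it was lower in GMPs than in HSCs by -1.06 ± 0.28 (adjusted p = 0.00203) in O-WT and -1.36 ± 0.28 (adjusted p = 0.000109) in O-NR, or -1.49 and -1.64 with the scaling on expressed genes. Nr1d1 shares 263 exon bases with Thra on the other strand, which had a median of 920 reads against 92, and whether counting used strand is not stated, so its counts could hold Thra reads.

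Of the PAR bZIP outputs, Dbp was lower in GMPs than in HSCs. Dbp (chr7:45705088-45710203) was at 12.8, 11.98, 8.96 and 12.4 CPM in O-WT and 13.2, 14.6, 8.64 and 8.47 in O-NR HSCs, at 8.55 to 12.2 in CLPs, and at 3.94 to 5.96 in GMPs. In plain CPM, GMPs lay below both other cell types without overlap. Against CLPs in O-WT, Dbp was not called in 6 of the 9 settings, the main one among them (-0.65 to -0.41). In O-NR it was called lower than in CLPs in all 9 (-1.47 to -0.89). Dbp was lower in GMPs than in HSCs by -0.95 ± 0.24 (adjusted p = 0.00146) in O-WT and -1.18 ± 0.25 (adjusted p = 0.00012) in O-NR, or -1.37 and -1.47 with the scaling on expressed genes, and the O-WT call was lost in DESeq2 (-0.69). Its exons share 539 bases with Sphk2 on the other strand (a median of 255 reads against 98). Tef (chr15:81802421-81826863) was at 23.1 to 43.9 CPM in HSCs, 28.8 to 41.4 in CLPs and 16.5 to 24.9 in GMPs, and its fold change of GMPs against HSCs was -0.43 (adjusted p = 0.0363) in O-WT and -0.27 (adjusted p = 0.228) in O-NR. With the scaling on expressed genes Tef was called lower, at -0.86 (adjusted p = 4.77e-05) and -0.57 (adjusted p = 0.00446), and over the 9 settings it was called in 3 in O-WT and 2 in O-NR.

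By count, CLPs differed from HSCs in 4 of 10 members in O-WT (4 lower) and 5 in O-NR (4 lower), at p below 0.01, where 27.2% and 29.1% of all 22573 genes tested passed (lower 19.2% in both). GMPs differed from HSCs in 6 members in each treatment (5 lower), where 37.6% and 33.9% of all genes passed (lower 19.5% and 18.7%), and from CLPs in 5 members in O-WT (4 higher) and 7 in O-NR (3 higher), where 47% and 33.2% passed (higher 23.4% and 17.5%). In plain CPM the groups did not overlap for 4, 8 and 7 members in O-WT, in the same order of comparisons, where 27.5%, 44% and 48.5% of all genes did not. The median fold change of the members was -0.50, -0.50 and -0.01 in O-WT for CLPs against HSCs, GMPs against HSCs and GMPs against CLPs, beside 0.06, -0.42 and -0.46 over all genes. The O-NR medians were -0.40, -0.45 and -0.24 beside 0.04, -0.26 and -0.31. The scaling on expressed genes moved the all-gene medians to 0.31, -0.84 and -1.13 in O-WT and 0.17, -0.56 and -0.73 in O-NR. It then called 4, 7 and 8 members in each treatment (3, 6 and 6 of them lower). Of all genes it called 12.4%, 11.7% and 8.96% higher and 14.4%, 32.7% and 51.8% lower in O-WT. In O-NR it called 12.4%, 12% and 9.59% higher and 17.1%, 26.4% and 29.7% lower. The share of higher genes among all called genes moved with this scaling from 29.2%, 48.0% and 49.8% to 46.3%, 26.4% and 14.8% in O-WT. In O-NR this share moved from 33.8%, 44.8% and 52.8% to 42.0%, 31.2% and 24.4%. Under the 9 settings tried and with each of 24 libraries left out, the members' calls that held in both treatments were those of Clock, Per3 and Nr1d2 in CLPs against HSCs, Clock, Cry1, Nr1d1 and Nr1d2 in GMPs against HSCs, and Per3 and Cry1 in GMPs against CLPs. The O-WT and O-NR comparisons use different libraries but come from 1 fit, and the comparisons within a treatment share libraries. In bulk libraries, fewer cells that use a gene and less RNA per cell cannot be told apart.

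**Figure D2:**
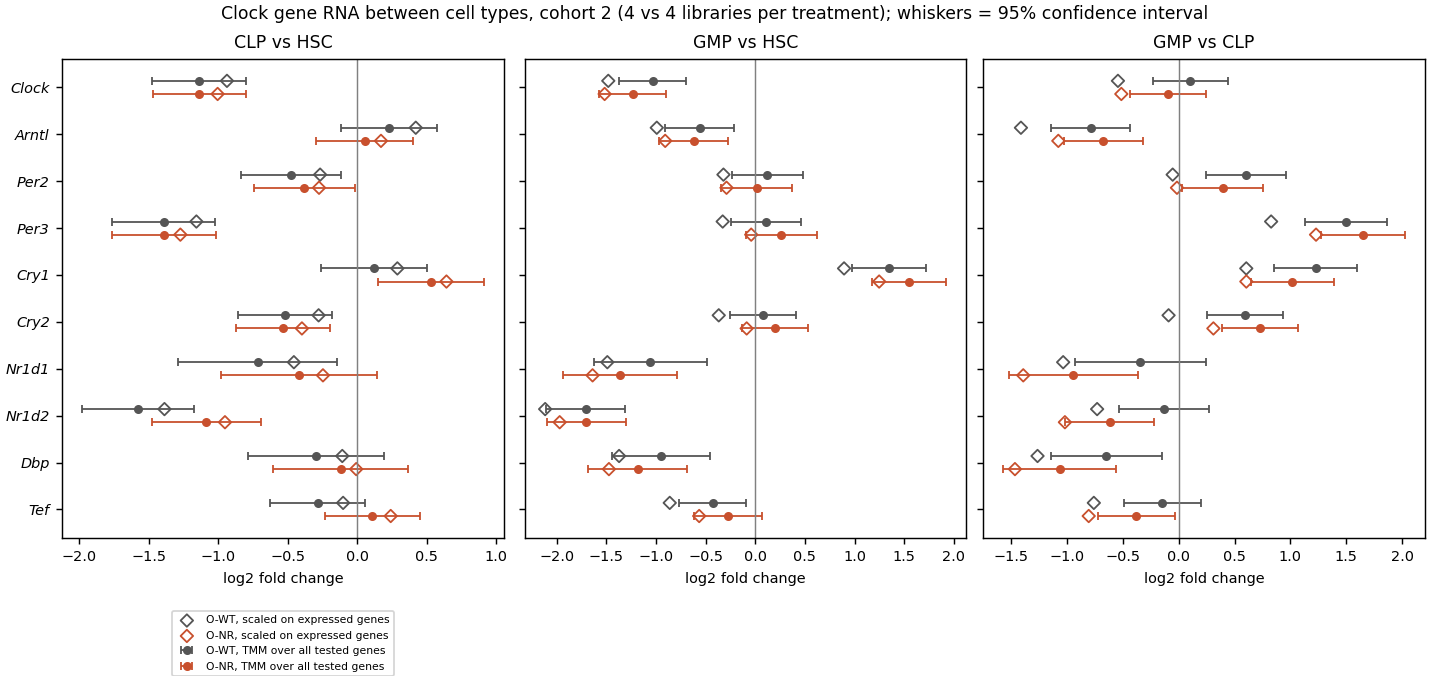
Log2 fold changes of the 10 clock genes between cell types in O-WT and O-NR libraries of cohort 2, as filled points with 95% intervals under the main scaling and as open diamonds under the scaling on expressed genes. Clock and Nr1d2 lie below 0 in both progenitors against HSCs, Cry1 lies above 0 in GMPs, and values change side with the scaling for Per2 (both treatments), Cry2 and Clock (O-WT) in GMPs against CLPs and for Per2, Per3 and Cry2 in GMPs against HSCs.

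NR was compared with no treatment in each cell type to ask whether raising the NAD+ supply moved the clock genes. In HSCs of cohort 2, 0 of 10 members passed p below 0.01 in edgeR's quasi-likelihood test, 0 passed p below 0.05 and 0 passed p below 0.01 in DESeq2, where in edgeR 0.726% of 17364 genes passed p below 0.01 and 3.84% p below 0.05. Their fold changes of O-NR against O-WT ran from -0.24 (Per2, 95% interval -0.59 to 0.10, adjusted p = 0.995) to 0.23 (Nr1d1, -0.17 to 0.64, adjusted p = 0.995), with a median of -0.05 beside -0.02 over all genes. No member's groups were free of overlap, against 3.09% of all genes. The intervals were narrowest for Clock (-0.06, -0.27 to 0.16) and widest for Dbp (-0.03, -0.49 to 0.43), so changes of up to these sizes could not be seen at this number of libraries.

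In CLPs, 0 of 10 members passed p below 0.01 (0.412% of 19909 genes) and 1, Nr1d2, passed p below 0.05 (3.21% of genes). Nr1d2 was at 12.9 to 16.6 CPM in O-WT and 19.2 to 23.4 CPM in O-NR, without overlap, as for 0.683% of all genes in this direction. Its fold change was 0.58 ± 0.23 (SE, 95% interval 0.12 to 1.05, adjusted p = 1). Over the 8 CLP libraries Nr1d2 stood at a median of 5.53 times the floor of receptor reads, with 1.7 times in the lowest. It passed p below 0.01 in the fit of all 6 groups (0.61) and without CLP O-WT replicate 4 (0.72) or CLP O-NR replicate 3 (0.66). The difference between this effect and that in HSCs (0.08, adjusted p = 0.995) or GMPs (0.17, adjusted p = 0.997) was not called (HSC minus CLP -0.49, adjusted p = 1, and CLP minus GMP 0.48, adjusted p = 0.945). Per2 was lower in O-NR CLPs without overlap in CPM (19.4 to 27.7 against 28.1 to 34.6, as for 2.29% of all genes in this direction), while its fitted fold change was -0.13 (adjusted p = 1). In GMPs, 0 of 10 members passed p below 0.01 (0.986% of 13486 genes) and Per2 passed p below 0.05 (4.80% of genes), at -0.25 ± 0.11 (95% interval -0.50 to -0.01, adjusted p = 0.997). Per2 in GMPs was at 30.7, 34.3, 27.4 and 35.7 CPM in O-WT and 27.6, 31.9, 28.1 and 21.6 in O-NR, with overlap. Of the differences in NR effect between cell types, 0 of 10 members passed p below 0.01 in any of the 3 pairs, where 0.421% (HSC and CLP), 0.133% (HSC and GMP) and 0.439% (CLP and GMP) of 22573 genes passed.

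**Figure D3:**
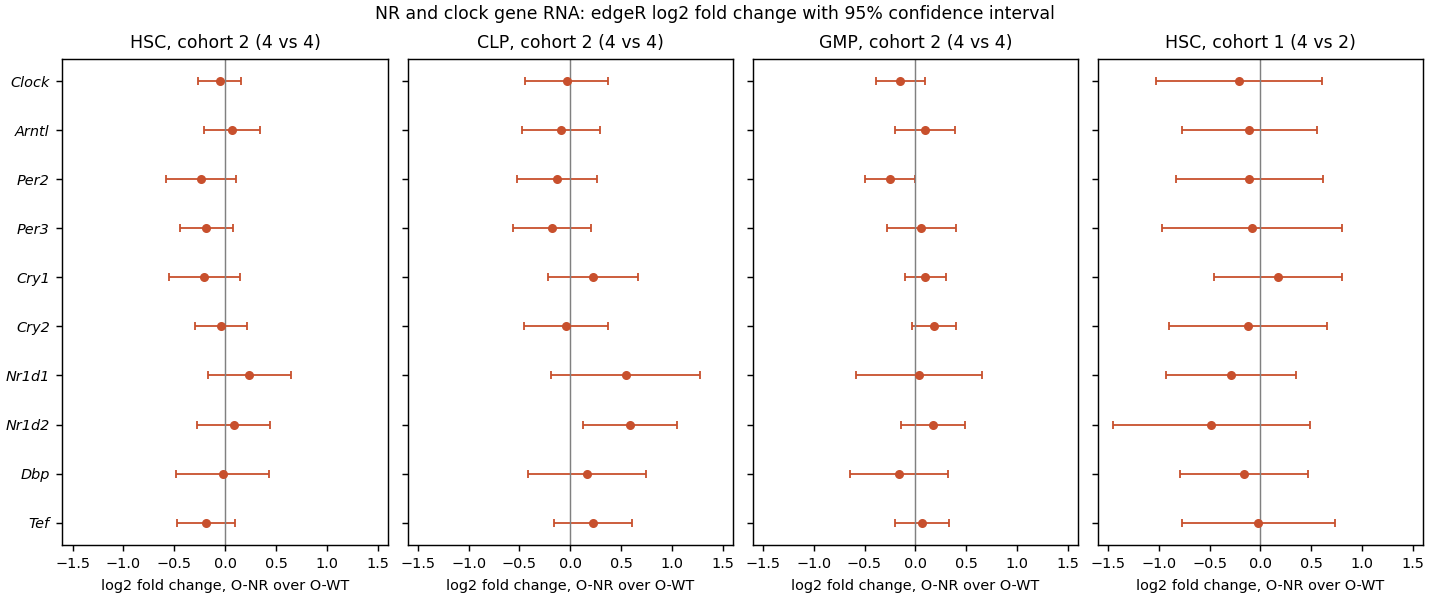
Log2 fold changes of O-NR against O-WT for the 10 clock genes in HSCs, CLPs and GMPs of cohort 2 and HSCs of cohort 1, with 95% intervals. The intervals include 0, apart from those of Nr1d2 in CLPs (0.12 to 1.05) and Per2 in GMPs (-0.50 to -0.01).

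In cohort 1, 0 of 10 members passed p below 0.01 in O-NR against O-WT (0.048% of 33350 genes), in O-NR-RC against O-NR (0.036%) or in O-NR-RC against O-WT (0.078%). Fold changes of O-NR against O-WT ran from -0.48 (Nr1d2, adjusted p = 1) to 0.17 (Cry1, adjusted p = 1), with standard errors of 0.29 to 0.45. Nr1d2 was at 48.6 and 35.4 CPM in O-WT, 28.3, 29.02, 35.0 and 34.9 in O-NR and 48.3, 37.0 and 33.04 in O-NR-RC. The O-NR libraries lay below both O-WT libraries, with the highest of them close to the lower O-WT library, as for 3.03% of all genes in this direction. The difference in the NR effect on Nr1d2 between the cohorts, cohort 2 minus cohort 1, was 0.56 ± 0.35 (adjusted p = 0.979). O-NR-RC against O-NR gave 0.34 (adjusted p = 1) for Nr1d2 and -0.25 to 0.20 for the other members, and without O-NR-RC replicate 1 the sign of Clock, Per3, Cry2, Nr1d1 and Nr1d2 turned to -0.41 to -0.20. Summed neutrophil markers were 37.24 to 116.2 CPM in O-NR-RC and 23.14 to 48.01 in O-NR, and their part in these values was not tested. A fit of 14 HSC libraries (O-NR-RC left out) from the 2 cohorts with a cohort term gave fold changes of -0.15 to 0.05 for the members, with 0 of 10 at p below 0.01 (0.103% of 23413 genes). Apart from treatment, Arntl stood higher in cohort 1 (32.7 to 43.3 CPM) than in HSCs of cohort 2 (20.01 to 30.7 CPM) without overlap, O-NR-RC left out, as for 29.2% of all genes in this direction. Against the floor of receptor reads, however, Arntl was at a median of 3.14 times in all 9 libraries of cohort 1 and 8.09 times in HSCs of cohort 2. The part of these reads in the difference was not tested.

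The members were also set against each other within libraries. Per library, the mean log2 CPM of the 6 genes driven by CLOCK:BMAL1 (Per2, Per3, Nr1d1, Nr1d2, Dbp and Tef) minus that of Clock and Arntl averaged -0.45 ± 0.22 (SD, n = 4) in O-WT and -0.51 ± 0.20 in O-NR HSCs of cohort 2, -0.78 ± 0.06 and -0.51 ± 0.32 in CLPs, and -0.29 ± 0.08 and -0.28 ± 0.27 in GMPs. In cohort 1 it averaged -0.70 ± 0.03 (n = 2) in O-WT, -0.76 ± 0.16 (n = 4) in O-NR and -0.81 ± 0.04 (n = 3) in O-NR-RC. O-NR and O-WT ranges overlapped in HSCs and in GMPs, and in CLPs the O-NR range of -0.76 to -0.07 reached into the O-WT range of -0.83 to -0.71. Without Clock and Tef the mean in O-WT HSCs of cohort 2 was 0.02.

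Deviations of the libraries from their own group means showed 3 members moving together in cohort 2. Over 24 libraries, Pearson's r of log2 CPM between Per2 and Per3 was 0.733, which placed Per3 8th among 10476 genes ranked by likeness to Per2. The r of Per2 and Tef was 0.675 (Tef at rank 34 for Per2) and that of Per3 and Tef was 0.620 (rank 101 for Per3). These values describe the libraries, which share depth and receptor reads. With the part that moved with receptor reads removed they were 0.694, 0.623 and 0.561. Within the 8 libraries of a cell type, r of Per2 and Per3 came to 0.802 (HSC), 0.802 (CLP) and 0.762 (GMP). Tef followed them in HSCs (0.887 with Per2 and 0.833 with Per3) and GMPs (0.634 and 0.807) but less in CLPs (0.127 and 0.085). In the 9 libraries of cohort 1, r was 0.172 for Per2 and Per3, 0.815 for Per2 and Tef and 0.505 for Per3 and Tef. Dbp, the other PAR bZIP member, had Tef at rank 86 (r = 0.455), and Arntl stood near the far end for Dbp (r = -0.407, rank 10276 of 10476). The 5 genes most like Arntl by the same measure were Enkd1 (0.748), Kif20b (0.727), Zdhhc20 (0.677), Arhgap5 (0.671) and Gbe1 (0.670), and those most like Dbp were 6820402A03Rik (0.688), Iqsec2 (0.661), Rgs2 (0.647), Btk (0.622) and Fam110a (0.615). Nr1d1 was not above 3 CPM in all 24 libraries, and its r with the other members ran from -0.218 (Cry1) to 0.223 (Tef).

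**Figure D4:**
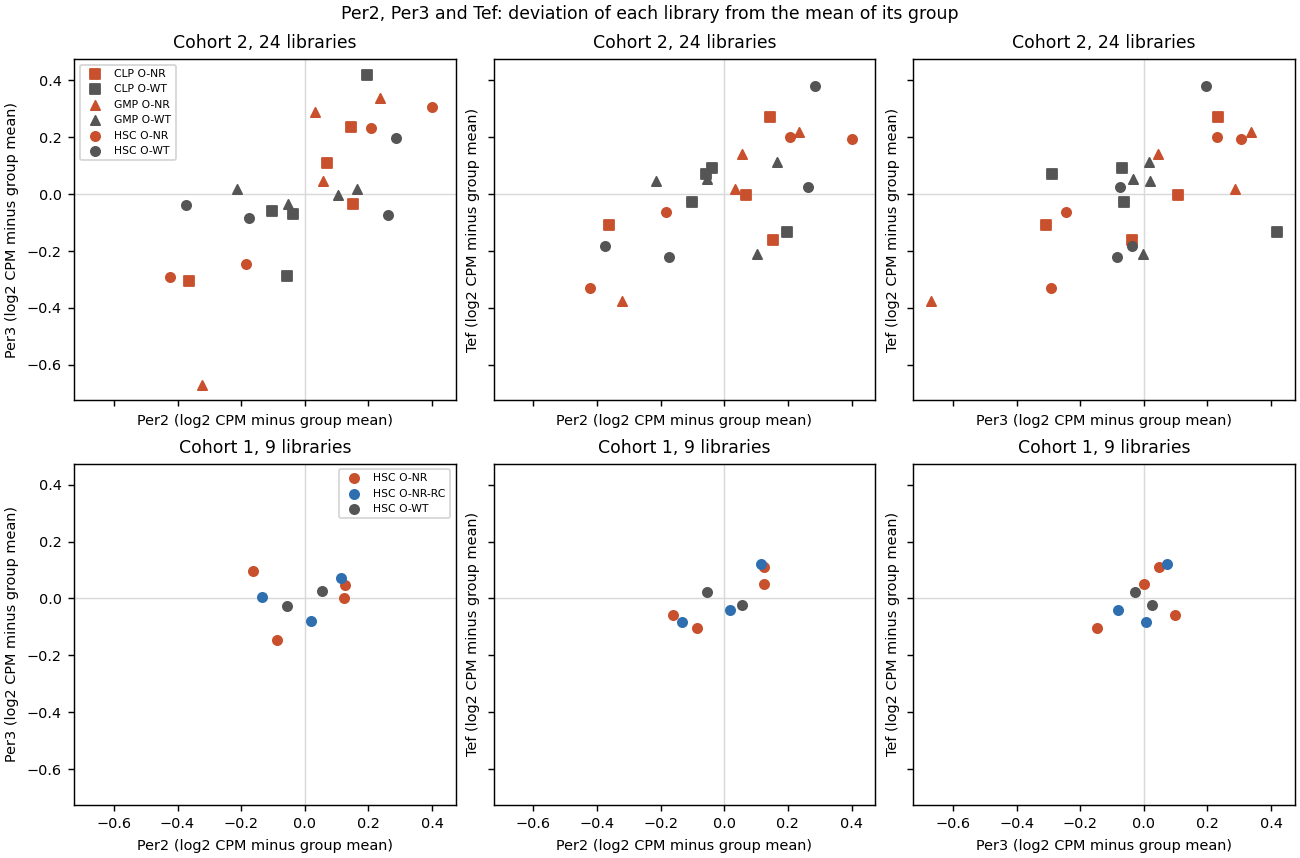
Deviation of each library's log2 CPM from its group mean for Per2, Per3 and Tef, pair by pair, with cohort 2 in the upper and cohort 1 in the lower row and 1 point per library. In cohort 2 the points rise together (r of 0.733, 0.675 and 0.620), and in cohort 1 they do so for Per2 and Tef (0.815) but not for Per2 and Per3 (0.172).

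If libraries with the same number in 1 treatment came from 1 mouse, a shared collection time could show as shared deviations of clock genes between its HSCs, CLPs and GMPs. The labels do not state that they did. Over 8 numbers, 30 relations were computed (10 members, 3 pairs of cell types, log2 CPM with TMM scaling), and Pearson's r ran from -0.883 to 0.842 with a median of 0.30, positive in 20 of 30. By two-sided exact permutation tests, 4 had p below 0.05 and the smallest Benjamini-Hochberg adjusted p was 0.0714. Nr1d1 in HSCs and CLPs had r = 0.842 (exact permutation p = 0.00486, rho = 0.786 with p = 0.0279, r = 0.699 without the 2 farthest libraries). Dbp in HSCs and CLPs had r = 0.794 (exact permutation p = 0.00531, rho = 0.762 with p = 0.0368, r = 0.743 without the 2 farthest), but Dbp in CLPs and GMPs had r = -0.883 (exact permutation p = 0.00714, rho = -0.786 with p = 0.0279, r = -0.464 without the 2 farthest). Centred on each treatment and permuted within it, these 3 values of r were 0.769, 0.825 and -0.868 (exact permutation p = 0.0278, 0.0382 and 0.0295), and the smallest adjusted p over the 30 relations was 0.286. In plain CPM the median r was 0.14 and the smallest adjusted p was 0.249, and the r of Nr1d1 in HSCs and CLPs was 0.316. Across all genes, same-numbered libraries of different cell types had a mean correlation of -0.025, against 0.008 for the others.

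Of 19 other clock genes, 1 passed p below 0.01 with NR in HSCs (0 higher, 1 lower), 0 in CLPs and 0 of the 14 tested in GMPs, and 0 of 5 NAD-linked partners passed in any of the 3. The 1 gene was Per1, the light- and glucocorticoid-responsive paralog of the PER members. An E-box lay 166 bases before the first start of Per1, and the window of its second start held none of the motifs searched. Per1 in HSCs of cohort 2 was at 158.9, 96.87, 134.6 and 95.31 CPM in O-WT and at 64.39, 67.5, 64.11 and 65.47 in O-NR. The groups did not overlap, as for 1.58% of all genes in this direction, and the fold change was -0.87 ± 0.16 (SE, adjusted p = 0.211), the fourth smallest p of all genes. In cohort 1, Per1 was at 178.4 and 55.5 CPM in O-WT, 49.61, 48.66, 66.14 and 61.26 in O-NR and 157.8, 68.81 and 73.96 in O-NR-RC. O-NR overlapped O-WT there (-1.16 ± 0.65, adjusted p = 1, and 0.04 without O-WT replicate 1), and O-NR-RC lay above O-NR without overlap, as for 0.663% of all genes (0.96 ± 0.59, adjusted p = 1, and -0.12 without O-NR-RC replicate 1). Both cohorts together gave -0.95 ± 0.22 (adjusted p = 1). In CLPs Per1 gave -0.34 (adjusted p = 1) and in GMPs -0.26 (adjusted p = 0.997), and the difference between HSCs and CLPs was -0.53 (adjusted p = 1). Of 7 glucocorticoid- and temperature-responsive genes, Tsc22d3, a glucocorticoid target, was lower in HSCs (-0.71, adjusted p = 0.995) and CLPs (-1.04, adjusted p = 0.764), and the cold-inducible Cirbp was higher in HSCs (0.66, adjusted p = 0.947), CLPs (0.76, adjusted p = 1) and GMPs (0.62, adjusted p = 0.745), with no other of the 7 at p below 0.01. The shares of all genes at this threshold were 0.726%, 0.412% and 0.986% in HSCs, CLPs and GMPs. Values of the other genes on this list are not given, so no direction is read for the list. In cohort 1 Cirbp gave -0.66 (adjusted p = 1) and Tsc22d3 -0.75 (adjusted p = 1). Plasma and B cell markers (4 genes) summed to 40.9 to 448.6 CPM in O-WT and 13.15 to 31.72 CPM in O-NR HSCs, and the part of these cells in the Per1 difference was not tested. Nampt was at 49.36 to 64.5 CPM in O-WT and 53.41 to 68.16 in O-NR HSCs (0.11, adjusted p = 0.995), and gave 0.37 (adjusted p = 1) in CLPs and 0.21 (adjusted p = 0.997) in GMPs. Sirt1 gave 0.08, 0.13 and 0.02.

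Among the other clock genes called, more were lower than higher in CLPs and in GMPs against HSCs, and in GMPs against CLPs. Among all called genes more were also lower than higher, except in GMPs against CLPs in O-NR under the main scaling. Their lean was slight in O-WT GMPs under that scaling, with 48% of called genes higher against HSCs and 49.8% against CLPs. Whether the lean is particular to the clock genes was not tested. In O-WT CLPs against HSCs, 1 of 19 was higher and 9 lower at p below 0.01, where 7.93% of all genes were called higher and 19.2% lower. In O-WT GMPs against HSCs 3 were higher and 8 lower (18% and 19.5% of all genes), and in GMPs against CLPs 3 were higher and 6 lower (23.4% and 23.6%). The O-NR libraries gave 2 higher and 10 lower (9.83% and 19.2%), 2 and 11 (15.2% and 18.7%), and 3 and 5 (17.5% and 15.7%). With the scaling on expressed genes the O-WT counts were 1 and 9 (12.4% and 14.4% of all genes), 1 and 12 (11.7% and 32.7%) and 1 and 12 (8.96% and 51.8%), and the O-NR counts were 2 and 8 (12.4% and 17.1%), 2 and 13 (12% and 26.4%) and 1 and 6 (9.59% and 29.7%). The largest difference was that of Hlf, the PAR bZIP paralog of Dbp and Tef and a known stem cell factor, at -4.96 ± 0.22 in O-WT CLPs (adjusted p = 3.49e-21) and -4.76 ± 0.22 in O-WT GMPs (adjusted p = 1.67e-21) against HSCs, or -4.74 and -5.18 with the scaling on expressed genes. The nuclear receptor Rora, which competes with REV-ERB at its element, was at -2.75 in GMPs (-3.13 with the scaling on expressed genes), and Rorb at -2.42 (-2.82). The transcriptional repressor Bhlhe40 was at -3.002 in CLPs (-2.73 with the scaling on expressed genes), where it stood at a median of 2.75 times the floor of receptor reads. Per1 was at -1.97 in CLPs (-1.72) and -1.85 in GMPs (-2.27). Timeless, which works in DNA replication and carries a D-box 157 bases before its start, was higher in both (1.67 and 2.28, or 1.87 and 1.85 with the scaling on expressed genes). GMPs against CLPs in O-WT gave Fbxw11 at 0.97 (0.33 with the scaling on expressed genes), Rora at -1.07 (-1.73), Npas2 at -1.51 (-2.17), Csnk1e at 0.85 (0.20, adjusted p = 0.138) and Rorb at -1.09 (-1.73). In O-NR, GMPs against CLPs gave Csnk1e at 0.79 (0.38 with the scaling on expressed genes), Fbxw11 at 0.66 (0.23, adjusted p = 0.0937), Btrc at -0.45 (-0.87), Fbxl21 at -1.13 (-1.57) and Bhlhe41 at -1.19 (-1.63). Of these, 4 genes stood near the floor of receptor reads, Bhlhe41 at a median of 1.23 times the floor in CLPs and 1.05 times in GMPs, Fbxl21 at 2.07 and 1.88 times, with Rora at 1.94 and 2.02 times and Rorb at 1.84 and 1.93 times. Npas2 was little further from it, at 2.8 and 3.01 times, with 1.49 times in the lowest library of each. The floor itself was 0.355 to 0.834 CPM per kb in O-NR CLPs and 0.257 to 0.336 in O-NR GMPs, so the values of these genes between GMPs and CLPs are not read as differences of the genes. Of 5 NAD-linked partners, Parp1, a consumer of NAD+, was higher in CLPs (1.74) and GMPs (1.41) than in HSCs (1.94 and 0.99 with the scaling on expressed genes), Sirt1 was lower in CLPs than in HSCs (-0.56, adjusted p = 0.0106, and -0.39, adjusted p = 0.0141, with the scaling on expressed genes), and Nampt was called higher in GMPs than in HSCs (0.45, adjusted p = 0.0233), which was 0.01 (adjusted p = 0.954) with the scaling on expressed genes.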

How the data were processed

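Bulk RNA-seq of sorted HSCs, CLPs and GMPs from old mice was taken as the deposited read counts per gene symbol. The authors trimmed the reads with trim galore and cutadapt, aligned them to mm10 with STAR and counted them on Gencode M22 genes with featureCounts, and these counts were not normalized. The versions of STAR and featureCounts and the strand setting are not given in the sources used here. Libraries were grouped by the labels. No column of other samples was present (0 columns). A gene was tested if it passed 3 CPM in a number of libraries equal to the size of the smaller group, and tests were run with edgeR 4.0.16 (quasi-likelihood, TMM, R 4.3.3). NR was tested within each cell type and cohort, and cell types were compared in 1 fit of the 6 groups of cohort 2. Calls used an unadjusted p below 0.01, a cutoff that the study states, and Benjamini-Hochberg adjusted p-values are given beside them. The study also lists a fold change cutoff and a cutoff on the false discovery rate, which were not used for these calls. Levels are CPM without scaling factors. Log2 CPM used a prior count of 2. Alternatives were DESeq2 1.42.0, RLE and upper quartile scaling, other filters, a replicate block and leaving out each library. The scaling on genes above 30 CPM, the receptor covariate and plain CPM were chosen after seeing the data. Correlations were tested by exact permutation with numpy 2.4.6, with ranks from scipy 1.17.1, and the code was checked on simulated data. All 10 members were named, with up to 5 other clock or NAD-linked genes of smallest p below 0.01 per comparison, and Per1, Nampt and Sirt1 always. One gene that this rule names is not reported here. The members and lists were chosen with earlier results of these data known. Intervals cover the spread between libraries, and the depth of 4792380 to 23816042 counted reads gave at least 32 reads for each member in each library.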

Additional observations from a re-analysis of the deposited data

Results flagged for a closer look

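Of 70 sets of 4 libraries examined for 1 value far from the others, 3 stood out by Dixon's ratio (its 95% critical value), and chance gives about 1 in 20. Clock in GMP O-NR replicate 4 was at 23.7 CPM, above 17.3 to 18.2 in the other libraries (ratio 0.852). Per3 in HSC O-WT replicate 2 of cohort 2 was at 81.0 CPM, above 66.7 to 68.8 (ratio 0.850). Cry1 in CLP O-WT replicate 3 was at 16.5 CPM, below 22 to 23 (ratio 0.846). Of the 40 tests of a difference in NR effect between cell types or cohorts, 0 members had p below 0.05 in edgeR's quasi-likelihood test.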

How the results depend on the processing

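Of 4447 recomputed values of single genes, 4279 stayed on their side of the threshold without a reversal, 47 came to pass it, 80 no longer passed it and 41 reversed. Among these 4279 values, 223 uncalled ones changed sign by less than their standard error (131 on leaving out a library) and are not counted as reversals. Of the recomputed counts and means, 444 held and 19 moved. In CLPs the number of members called with NR was 1 (Nr1d2) under the replicate block, in 1 fit of the 6 groups, at p below 0.05 and without CLP O-WT replicate 4 or CLP O-NR replicate 3, against 0 in the reported fit (0 to 1 over the leave-outs). It was 1 in GMPs at p below 0.05 (Per2), 1 for O-NR-RC against O-NR with the scaling on expressed genes and the receptor covariate (Nr1d2), and 1 for the difference between cohorts under the replicate block (Nr1d2). GMPs against CLPs in O-WT gave 8 members with the scaling on expressed genes against 5. CLPs against HSCs in O-NR gave 3 with RLE size factors, no filter or DESeq2 against 5 (3 to 6 over the leave-outs, 3 without HSC O-NR replicate 3). The output minus activator means without Clock and Tef were -1.08 in CLP O-WT, -0.10 in GMP O-WT, -0.07 and 0.02 in HSC O-NR and O-WT of cohort 2, and -0.68 and -0.45 in HSC O-NR-RC and O-WT of cohort 1.

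In GMPs against HSCs in O-WT, the scaling on expressed genes reversed Per2 (-0.32), Per3 (-0.33) and Cry2 (-0.37), as did the receptor covariate with it (-0.0943, -0.10 and -0.14), and upper quartile scaling reversed Cry2 (-0.0957). In O-NR these were Per2 (-0.29 and -0.17 with the covariate), Per3 (-0.0417) and Cry2 (-0.0873). In GMPs against CLPs in O-WT, Clock was -0.34 (upper quartile), -0.54 (expressed genes) and -0.33 (with the covariate), Per2 -0.0538 and Cry2 -0.0904 (expressed genes), Nr1d2 0.084, 0.11, 0.10 and 0.0849 and Tef 0.0704, 0.0986, 0.0904 and 0.0699 (RLE, filterByExpr, no filter and DESeq2). In O-NR, Clock was 0.0838 without a filter and Per2 -0.0153 with the scaling on expressed genes. Dbp in CLPs against HSCs in O-NR was 0.13 with upper quartile scaling. For O-NR-RC against O-WT, the scaling on expressed genes gave Cry1 0.24 and Dbp 0.0412. Without O-NR-RC replicate 1, O-NR-RC against O-NR reversed for 6 genes, with leave-out ranges of -0.38 to 0.20 for Clock, -0.41 to 0.19 for Per3, -0.32 to 0.26 for Cry2, -0.20 to 0.36 for Nr1d1, -0.32 to 0.59 for Nr1d2 and -0.12 to 1.30 for Per1. Per1 in O-NR against O-WT of cohort 1 ranged from -1.81 to 0.0407. The difference between cohorts was -0.13 for Clock, -0.18 for Arntl and -0.19 for Cry2 with the scaling on expressed genes, and 0.18 for Per3 and 0.0828 for Tef under the replicate block. The cause of these changes was not tested.

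Whether replicate numbers paired the samples could not be decided from 4 same-numbered pairs per cell type. Same-numbered O-WT and O-NR libraries had correlations of deviations of -0.351 to 0.649 in HSCs (mean 0.136), -0.196 to 0.335 in CLPs (mean 0.03) and -0.054 to 0.321 in GMPs (mean 0.048). Differently numbered libraries had -0.63 to 0.517 (mean -0.046), -0.504 to 0.379 (mean -0.009) and -0.465 to 0.458 (mean -0.017). With the replicate number as a block, the NR effect on Nr1d2 in CLPs was 0.61, which passed p below 0.01, and the number of all genes called was 253 against 126 in HSCs, 184 against 82 in CLPs, 74 against 24 over both cohorts and 3813 against 32 for the difference between cohorts, where 4 residual degrees of freedom were left. Among other settings that moved the number of all genes called by NR by over 1.5 times, upper quartile scaling, no filter, the scaling on expressed genes and the same with the covariate gave 203, 283, 200 and 398 in HSCs, against 126. In CLPs, filterByExpr, no filter, the covariate and 1 fit of 6 groups gave 131, 336, 308 and 335 against 82, and in GMPs no filter and 1 fit gave 366 and 37 against 133. In cohort 1, alternatives gave 4 to 387 against 16, 26 to 438 against 12 and 3 to 397 against 26 for the 3 comparisons. The covariate gave 4775 against 10615 for GMPs against CLPs in O-WT. The differences in NR effect gave up to 596, 217 and 468 without a filter against 95, 30 and 99, both cohorts 50 to 248 against 24, and the difference between cohorts 56 to 261 against 32 apart from the block.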
